A study of Mus musculus with 32 samples.

Results

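The tibialis anterior (TA) of wild-type (WT) mice was compared between P21, the usual age of weaning, and P14, when pups still live on milk. These were 8 of the 32 RNAseq libraries of the series, chosen by their labels: n=4 at P14 and n=4 at P21. Each library came from polyadenylated RNA of skeletal muscle on the C57BL6/J strain background, and the study's methods name the muscle as the TA. WT mice carried intact *Mtm1*, the gene of the phosphoinositide phosphatase myotubularin. The libraries used for comparison were WT at P1 and P35 and *Mtm1* KO at P14 and P21, n=4 each. *Mtm1* KO at P1 and P35, n=4 each, entered the plot of single genes across ages. They also entered the scaling of CPM and the fit of all 32 libraries. The KO line lacks exon 4 of *Mtm1* by gene targeting and models X-linked myotubular myopathy, a muscle disease. All groups shared the strain and the preparation, and no group was treated.

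Between birth and weaning, limb muscle stops adding nuclei by fusion of myoblasts, replaces its embryonic and perinatal contractile proteins by adult fast or slow forms, and matures its junctions with motor nerves. At weaning the diet turns from milk, which is rich in fat, to chow, which is rich in carbohydrate. Imprinted genes, which are read from only the maternal or only the paternal copy, include genes that promote and genes that restrain growth before and just after birth, and many are turned down as growth slows.

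The counts of the 8 libraries summed to 58004300–69358320 at P14 and 49321035–55841583 at P21, so that the older libraries were all shallower. Thinning every library to the smallest total left 835 differentially expressed genes (DEGs) in place of 848. The share of counts in mitochondrially encoded genes was 7.84–9.32% at P14 and 9.75–11.99% at P21. *Acta1*, *Myh4* and *Tnnt3*, which encode skeletal actin, a fast myosin heavy chain and fast troponin T, had mean levels of 32976, 61751 and 13554 CPM (counts scaled to library size) at P14, so that the markers of a fast skeletal muscle were present. *Mtm1* was at 19.3–21.8 CPM at P14 and 18.9–21.8 CPM at P21 in WT, against 4.07 and 3.14 CPM on average in KO. The Y-linked gene *Ddx3y* was at 109–139 CPM at P14 and 111–122 CPM at P21 and *Xist* averaged 0.0256 CPM at P14 and 0.0487 CPM at P21, the pattern of male mice at both ages. WT P14 replicate 4 stood apart from its group. Its mean distance to the other P14 libraries was 0.38 (root mean square log2 difference over the genes tested), against 0.26–0.28 for the others. The P21 libraries lay 0.32–0.36 from their own group. Its distance to the P21 libraries was 0.44, against 0.45–0.53 for the other P14 libraries. Results are therefore also given without it. The labels number the libraries of a group without saying that each came from its own mouse, so P-values measure the spread between these libraries. Litters and preparation days were not given, and age and any such batch cannot be told apart.

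Promoter sequences are shown for genes of 2 groups that moved together, hemoglobin synthesis (higher at P21) and the immature fiber (lower at P21). They are the 250 bases before the start site in RefSeq (GRCm38.p6), 5′ to 3′ on the gene's strand. Gene coordinates elsewhere are those of GENCODE, whose gene bounds differ from the RefSeq starts, so that all of these windows but that of *Myh8* reach into the gene as GENCODE bounds it, and the *Chrng* window lies wholly inside it. In the first set, capitals mark GATAA or its reverse complement TTATC, the core of the sites of GATA factors that drive red cell genes. This core was chosen after a longer form had been looked at, and 22.6% of the 32851 promoters in the RefSeq table hold it. The *Hba-a2* promoter repeats that of *Hba-a1* in all 247 bases that could be aligned.
*Alas2* (chrX:150547167-150547416, plus strand): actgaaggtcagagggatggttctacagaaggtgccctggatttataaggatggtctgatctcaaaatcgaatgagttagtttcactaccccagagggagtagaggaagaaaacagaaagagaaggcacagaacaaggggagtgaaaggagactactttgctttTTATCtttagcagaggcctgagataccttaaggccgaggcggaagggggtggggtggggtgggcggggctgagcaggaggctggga
*Hba-a1* (chr11:32283422-32283671, plus strand): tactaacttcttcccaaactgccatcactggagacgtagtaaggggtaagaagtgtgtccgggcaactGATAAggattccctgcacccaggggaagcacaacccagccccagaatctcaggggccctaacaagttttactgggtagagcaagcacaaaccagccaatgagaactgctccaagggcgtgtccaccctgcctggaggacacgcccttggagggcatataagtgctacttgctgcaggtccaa
*Hbb-bt* (chr7:103813924-103814173, minus strand): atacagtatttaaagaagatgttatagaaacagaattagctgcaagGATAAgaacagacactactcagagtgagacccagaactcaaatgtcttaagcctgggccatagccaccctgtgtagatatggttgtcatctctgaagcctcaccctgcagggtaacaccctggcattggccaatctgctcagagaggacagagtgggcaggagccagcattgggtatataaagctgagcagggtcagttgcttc

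In the second set, capitals mark CAGCTG, a form of the E-box to which myogenic factors bind, which reads alike on both strands and occurs in 4271 of the 32851 promoters. *Chrng* held 2 matches, while *Myog* and *Myh8* held none in this window. *Tnnt2*, whose sequence is not shown, held 2 matches before 1 start site and 0 before another. *Mymk* and *Mymx* had no entry.
*Chrng* (chr1:87205561-87205810, plus strand): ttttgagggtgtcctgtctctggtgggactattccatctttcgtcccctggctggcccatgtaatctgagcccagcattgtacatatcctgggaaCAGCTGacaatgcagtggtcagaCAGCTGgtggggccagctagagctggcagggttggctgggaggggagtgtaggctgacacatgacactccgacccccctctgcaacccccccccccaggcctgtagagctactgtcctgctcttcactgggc
*Myog* (chr1:134289754-134290003, plus strand): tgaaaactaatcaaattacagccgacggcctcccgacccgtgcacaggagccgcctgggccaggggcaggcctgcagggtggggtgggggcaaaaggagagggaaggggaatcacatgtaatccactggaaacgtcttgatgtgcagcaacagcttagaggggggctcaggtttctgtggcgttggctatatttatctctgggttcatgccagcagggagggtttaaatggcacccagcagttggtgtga
*Myh8* (chr11:67276874-67277123, plus strand): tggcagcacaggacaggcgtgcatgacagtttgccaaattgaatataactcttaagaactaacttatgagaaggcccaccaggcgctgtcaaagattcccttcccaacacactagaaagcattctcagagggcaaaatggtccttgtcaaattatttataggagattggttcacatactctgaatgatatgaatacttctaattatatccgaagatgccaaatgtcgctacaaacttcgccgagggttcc
These letters describe the window only, and whether any factor bound there was not measured.

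Of 15337 genes tested in WT muscle, 848 (5.53%) were DEGs between P14 and P21, with an adjusted P-value under 0.01 and a fold change over 1.5. Of these, 450 (2.93% of genes tested) were higher at P21 and 398 (2.6%) were lower. Changes over 4-fold were seen in 25 DEGs that rose and 56 that fell. Adjusted P-values here and below come from edgeR's quasi-likelihood test, adjusted by Benjamini-Hochberg across every tested gene. In 847 of the DEGs the 4 P21 libraries lay entirely above or entirely below the 4 P14 libraries, as they did in 27.9% of all genes tested. An unadjusted P-value under 0.05 was reached by 6081 of the 15337 genes. Without P14 replicate 4 there were 1364 DEGs (697 higher, 667 lower) among 15528 genes tested. The number was 349, 423 and 485 without P14 replicate 1, 2 or 3 and 503 without P21 replicate 1. The split also moved with the scaling: by library totals 246 DEGs were higher and 569 lower, since the median log2 change over every gene tested then moves from -0.03 to -0.19. Between single libraries of P14 and P21 the root mean square log2 difference over genes averaged 0.69. It was 1.69 for P1 and P14, 0.69 for P21 and P35, 0.47 within P14 and 0.56 within P21. These distances were taken over 17591 genes, filtered across the WT libraries of all ages. They are not on the scale of distances over the 15337 genes tested. The means of the P14 and P21 groups were 0.49 apart, more than in any other assignment of the 8 libraries to the ages (exact permutation test, two-sided, P=0.0286, which is the smallest value that 70 assignments allow).

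**Figure D1:**
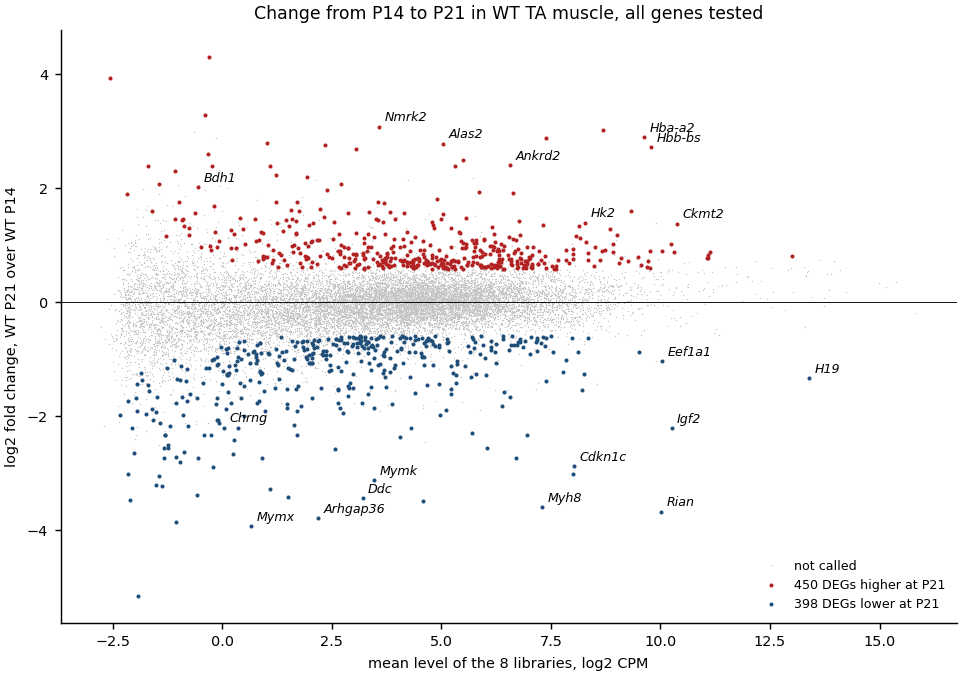
Each point is a gene, with its mean level in the 8 WT libraries on the x axis (log2 CPM) and its log2 fold change from P14 to P21 on the y axis. The 450 DEGs higher at P21 are red, the 398 lower are blue, and the lowest labelled gene is *Mymx* at -3.93.

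Genes of myoblast fusion were among those that fell furthest. *Mymx* (chr17), which encodes the fusion protein myomixer, had the lowest log2 fold change of the named DEGs. It was at 4.02, 3.68, 2.72 and 1.48 CPM at P14 and at 0.147, 0.0984, 0.2899 and 0.238 CPM at P21 (n=4 each). The groups did not overlap, and the 4 P21 libraries held only 4–12 counts each. Its log2 fold change was -3.93 ± 0.41 (SE; adjusted P=0.00056), or 15.3-fold lower. *Mymk*, the gene of its partner myomaker, was at 25.5, 22.7, 20.02 and 11.2 CPM at P14 and 0.835, 2.09, 3.96 and 2.24 CPM at P21. It fell by 3.12 ± 0.41 on the log2 scale (adjusted P=0.0013), and P14 replicate 4 was the lowest of the younger libraries for both genes. *Myog* (chr1:134289989-134292548), the transcription factor myogenin that drives terminal differentiation, was at 67.5, 65.2, 54.4 and 30.8 CPM and then 17.2, 9.22, 20.6 and 12.4 CPM. Its decrease was 1.88 ± 0.29 (adjusted P=0.0029), called in 6 of 8 fits with a library left out. *Calcr*, a calcitonin receptor found on quiescent satellite cells, the stem cells of muscle, fell from 3.26–4.44 to 1.55–1.99 CPM. The Notch target *Hey1* fell from 15.5–25.03 to 6.71–10.9 CPM, but its call was lost when any of 7 libraries was left out. These 5 were the DEGs among 24 myogenic and satellite cell factors tested, where 2.6% of all genes fell. The list's median was -0.34 on the log2 scale and that of all genes -0.03. With P14 replicate 4 left out, 8 of the list fell and 1 rose, where 667 and 697 of all 15528 genes did. In whole muscle, fewer cells of a type and less RNA per cell cannot be told apart.

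Sarcomere genes of the immature fiber fell too. Of 12 such genes 4 fell, where 2.6% of all genes did, none rose, and the median log2 fold change was -1.29. *Myh8* (chr11:67277124-67308634), the perinatal myosin heavy chain, was at 405, 539, 155 and 71.2 CPM at P14 and 22.1, 24.9, 19.6 and 30.3 CPM at P21. The P14 libraries spread widely, with replicate 4 lowest, whereas the P21 libraries were close together, and the ages did not overlap. The log2 fold change was -3.60 ± 0.57 (adjusted P=0.0029), and 5 of 8 fits with a library left out called it. *Myl4*, *Tnnt2* and *Myl6b*, which encode embryonic light chain, cardiac troponin T and a further embryonic or slow light chain, fell by 1.60 ± 0.17, 1.48 ± 0.23 and 1.59 ± 0.31. *Tnnt2* was called in 5 and *Myl6b* in 3 of those 8 fits. *Myh3*, the embryonic heavy chain, did not pass the test, at 47.9, 65.3, 30.9 and 23.1 CPM and then 1.42, 5.51, 6.96 and 16.8 CPM (log2 fold change -2.45 ± 0.60, adjusted P=0.018). *Actc1*, the cardiac actin of developing muscle, was still at 5128 CPM at P21 and ranged over 2545–9319 CPM, with a log2 fold change of 0.07 ± 0.34 (adjusted P=0.90) whose sign turned with the setting.

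The adult fast genes, in contrast, gave 0 DEGs among 20 tested, with a median log2 fold change of 0.13 (-0.02 by library totals). At an adjusted P-value under 0.05 there was 1, and DESeq2 called 1. At an unadjusted P-value under 0.05 there were 2, where 6081 of all 15337 genes passed. *Myh4* went from 67.4 CPM at P1 to 61751 at P14 and 54693 at P21, and *Myh1* from 208 to 11909 and 19762 CPM. Of 15 slow fiber genes 1 rose and 1 fell, where 2.93% and 2.6% of all genes did. *Sln*, whose product sarcolipin slows the calcium pump of the sarcoplasmic reticulum, fell from 6.09–12.5 to 2.98–3.49 CPM (-1.52 ± 0.23, adjusted P=0.0025). *Ankrd2*, a stretch-responsive ankyrin repeat gene, had the opposite course, from 17.9, 27.96, 16.9 and 57.2 CPM to 131, 214, 169 and 126 CPM (2.41 ± 0.39, adjusted P=0.0033). Without P14 replicate 4, which had the highest *Ankrd2* level of its group, the log2 fold change was 2.94, while of the 8 fits with a library left out 5 called *Ankrd2*. *Tnni1* and *Tpm3*, the slow troponin I and slow tropomyosin, had log2 fold changes of -1.76 ± 0.40 and -0.81 ± 0.18 and did not pass the test (adjusted P=0.014 and 0.012). P21 replicate 4 was the library with the highest level of both at that age, at 43.00 and 186 CPM.

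Of 12 pairs in which a later form takes over from an earlier one, 11 are given here, set side by side as ratios of CPM per kilobase of exon, so that a ratio compares levels per length. In 7 of these 11 pairs every P21 ratio lay above every P14 ratio. For the myosin heavy chains *Myh4* over *Myh8* the ratio was 195.7–1793 at P14 and 3414–5893 at P21, whereas at P1 it had been 0.00706–0.01001. For the translation elongation factors *Eef1a2* over *Eef1a1* it was 1.34–2.36 and then 2.996–4.39, and for the ribosomal proteins *Rpl3l* over *Rpl3* it was 5.54–9.38 and then 10.3–14.8. In both of these pairs the later gene did not pass the test (log2 fold changes -0.03 ± 0.12 and 0.15 ± 0.11) while the earlier one fell, *Eef1a1* by 1.03 ± 0.12 and *Rpl3* by 0.64 ± 0.09. The 4 pairs whose ratios overlapped were *Chrne* over *Chrng*, *Acta1* over *Actc1*, *Atp2a1* over *Atp2a2* and *Slc2a4* over *Slc2a1*.

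**Figure D2:**
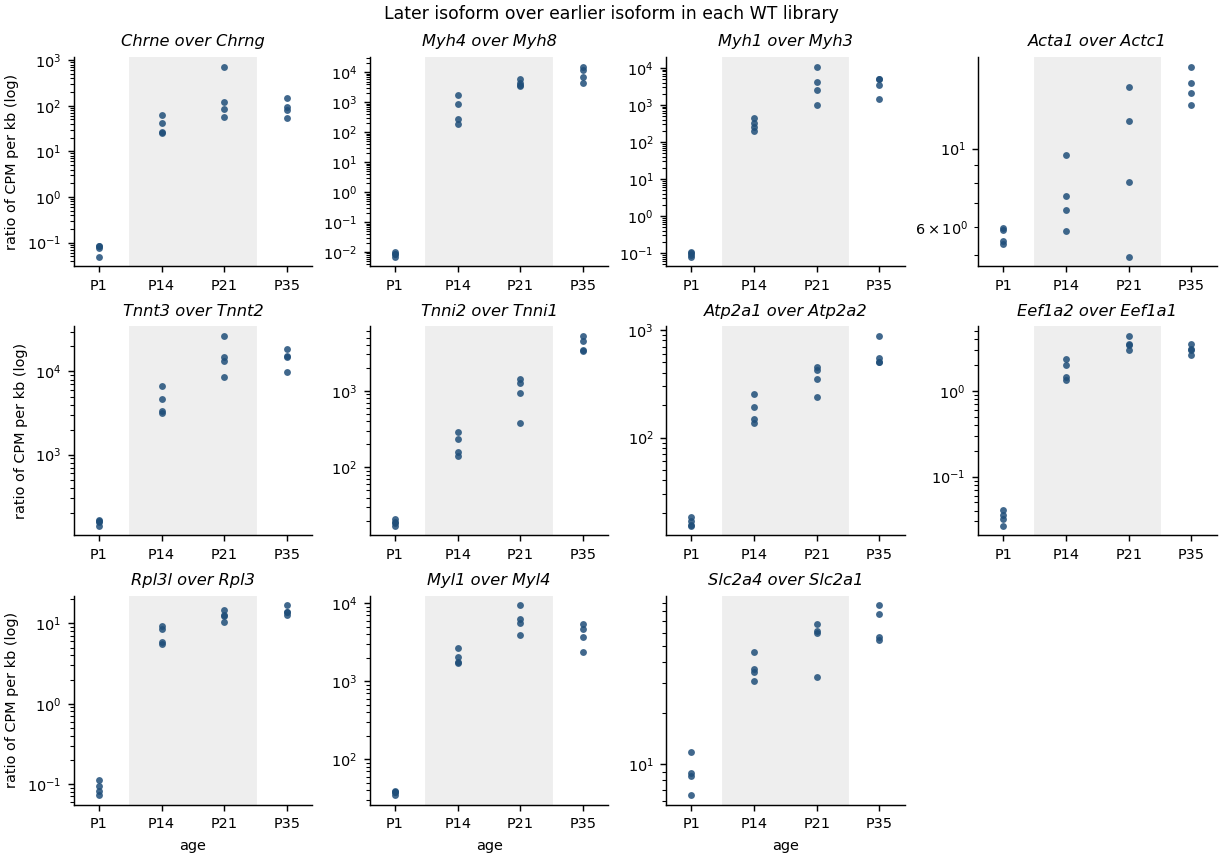
Ratio of the later to the earlier gene of the 11 pairs given in each WT library (points), as CPM per kilobase of exon on a log axis, at P1, P14, P21 and P35. The step from P14 to P21 is shaded; for *Myh4* over *Myh8* the 4 points lie between 195.7 and 1793 at P14 and between 3414 and 5893 at P21.

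At the nerve-muscle junction 1 of 16 genes was called, a share near the 5.53% of all genes, and 3 were lower at an adjusted P-value under 0.05. *Chrng* (chr1:87204657-87212694), the fetal gamma subunit of the acetylcholine receptor, was at 2.13, 2.13, 1.57 and 0.9402 CPM at P14 and 0.0983, 0.418, 0.507 and 0.453 CPM at P21. It fell by 2.20 ± 0.42 (adjusted P=0.0059), but only 2 of 8 fits with a library left out called it. The adult epsilon subunit gene *Chrne* was at 21.8–27.2 and 9.84–28.8 CPM and did not pass the test (adjusted P=0.49). *Chrnb1*, the beta subunit shared by the fetal and adult receptor, had an adjusted P-value of 0.0045 with a change of -0.54 ± 0.10, under the fold required. Among 19 ion channel and pump genes of the surface membrane, 3 rose, where 2.93% of all genes did, and none fell, but by library totals 1 rose and 1 fell. The pump subunit gene *Atp1b1* went from 189, 189, 202 and 235 CPM to 455, 464, 411 and 375 CPM (1.05 ± 0.10, adjusted P=0.00047). The adult sodium channel gene *Scn4a* and the potassium channel gene *Kcna7* rose by 0.64 ± 0.10 and 0.59 ± 0.09, called in 6 and 5 of 8 fits with a library left out. Of 22 genes of the triad, the membrane contact that releases calcium, only *Cacng1* was called, a share near the 5.53% of all genes. This gamma subunit of the muscle calcium channel fell from 315, 302, 312 and 301 to 168, 159, 106 and 183 CPM (-1.01 ± 0.14, adjusted P=0.0018), whereas *Ryr1*, the release channel itself, was at 0.45 ± 0.15 (adjusted P=0.055).

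Imprinted growth genes made up the list with the lowest median. Of 20 tested, 12 fell, none rose, and the median log2 fold change was -1.37, where 2.6% of all genes tested fell. Without P14 replicate 4, 14 were called lower, where 667 of all 15528 genes were. *Igf2* (chr7:142650766-142666816), the fetal insulin-like growth factor, was at 2351, 2406, 1911 and 1335 CPM at P14 and 615, 376, 396 and 366 CPM at P21. The groups were far apart and the log2 fold change was -2.20 ± 0.23 (adjusted P=0.00056). *H19*, a noncoding RNA read from the other parental copy beside *Igf2* (chr7:142575529-142578143), was the most abundant DEG, at 15354 ± 1667 CPM (SD) at P14 and 6159 ± 894 at P21. It fell by 1.33 ± 0.16 on the log2 scale (adjusted P=0.0010). *Cdkn1c*, a cyclin-dependent kinase inhibitor of the same region (chr7:143458339-143461050), went from 527, 525, 444 and 339.7 to 49.1, 62.3, 74.03 and 66.7 CPM, which was 7.32-fold lower (adjusted P=0.00011). A further imprinted cluster lies on chromosome 12. Its noncoding RNA *Rian* (chr12:109603940-109661716), which hosts small nucleolar RNAs, was at 2568, 2809, 1261 and 1075 CPM and then 170.3, 188, 112 and 137 CPM. *Mirg* (chr12:109729764-109749460), which hosts microRNAs, fell from 26.1–62.3 to 3.33–4.52 CPM. The log2 fold changes of *Rian* and *Mirg* were -3.68 ± 0.34 and -3.49 ± 0.31. P14 replicates 3 and 4 held less *Rian* than replicates 1 and 2, yet stayed above all P21 libraries. *Meg3* and *Dlk1* of that cluster, which were singled out after their values had been seen, fell by 3.01 ± 0.30 and 2.56 ± 0.32. *Grb10*, an adaptor that dampens insulin receptor signaling (chr11:11930508-12038683), fell by 1.26 ± 0.12. *Ddc*, the decarboxylase that makes dopamine and serotonin, lies next to it (chr11:11814101-11898144) and was among the 8 lowest DEGs, from 19.2, 20.8, 17.1 and 10.2 to 2.21, 1.303, 1.09 and 1.65 CPM (-3.44 ± 0.27, adjusted P=0.00024). *Gnas*, *Peg10*, *Igf2r* and *Impact* were among the imprinted genes that did not pass.

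**Figure D3:**
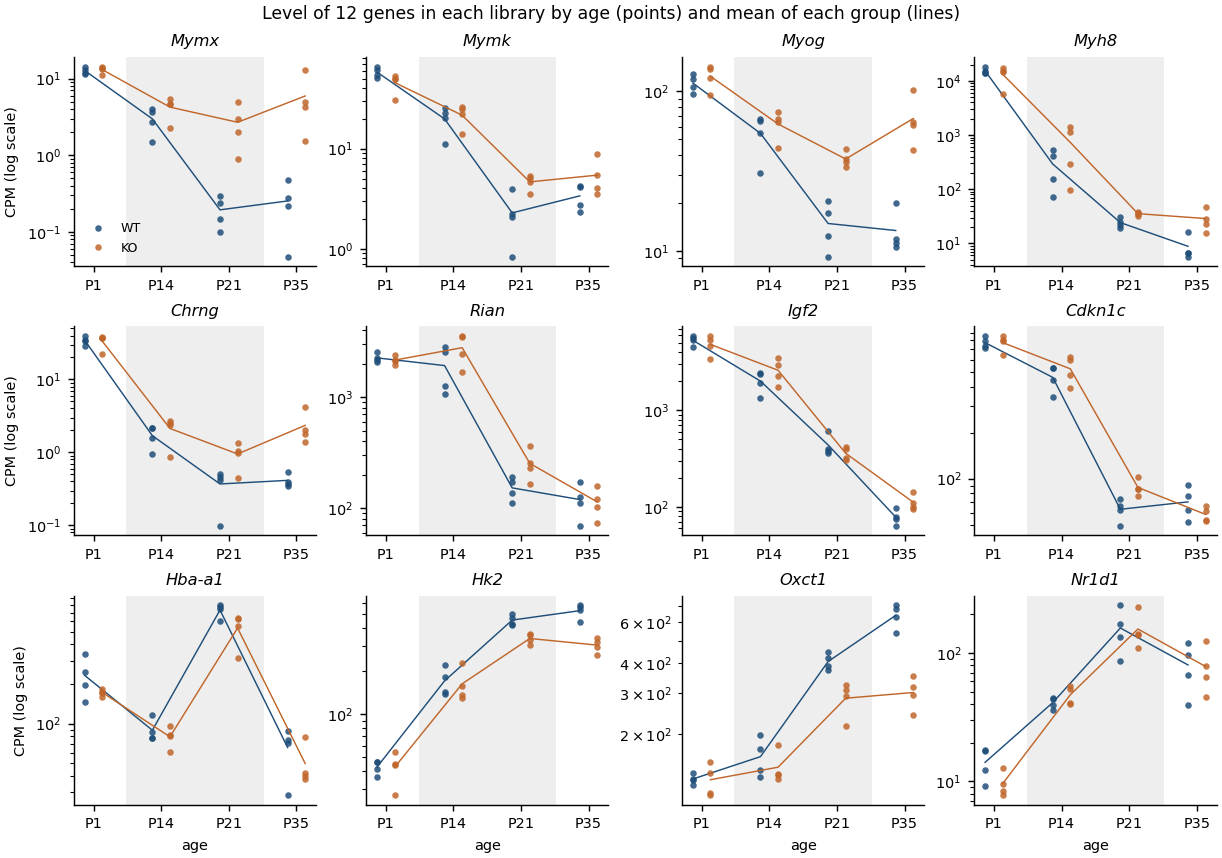
CPM on a log axis of 12 genes in every library at P1, P14, P21 and P35, with WT in blue, KO in orange and lines through the group means; the step from P14 to P21 is shaded. *Rian*, *Igf2* and *Cdkn1c* fell in WT and KO, *Hba-a1* peaked at P21, and *Mymx* ended lower in WT (0.194 CPM at P21) than in KO (2.69 CPM).

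Among the other DEGs with the lowest fold changes were *Arhgap36* and *Prr32*. *Arhgap36*, a regulator of hedgehog signaling, was at 593 CPM at P1, 11.5, 14.1, 5.47 and 2.695 CPM at P14 and 0.786, 0.369, 0.628 and 0.668 CPM at P21. Its log2 fold change was -3.79 ± 0.52 (adjusted P=0.0017). *Prr32* fell by 3.42 ± 0.42, from 2.53–7.34 to 0.344–0.811 CPM.

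No cell cycle gene was called, although most had a negative sign. Of 60 tested, 54 had a negative log2 fold change, as had 8156 of all 15337 genes, and the median was -0.82. There were 0 DEGs by edgeR, 4 by DESeq2 and 4 genes lower at an adjusted P-value under 0.05. At an unadjusted one 27 were lower, where 6081 of all 15337 genes passed in either direction. The spread within each age was wide: the summed level of the list was 402.8–784.6 CPM at P14 and 324.0–621.7 CPM at P21. The condensin gene *Smc4* came nearest to a call, at 37.7, 44.2, 34.4 and 34.2 CPM and then 17.1, 28.5, 26.1 and 19.2 CPM (-0.74 ± 0.17, adjusted P=0.013). *Cenpe*, a motor protein of the mitotic spindle, was at -1.27 ± 0.39 (adjusted P=0.041). Of 46 collagen and matrix genes, 2 fell, a share near the 2.6% of all genes, and none rose, with a median of -0.44. They were *Fbn2*, a fibrillin of growing tissue, which fell from 11.9, 12.8, 11.99 and 6.79 to 2.68, 3.17, 4.98 and 4.56 CPM, and *Postn*, periostin, which fell from 301, 300.3, 245 and 125 to 67.01, 115, 78.02 and 115 CPM. Their log2 fold changes were -1.51 ± 0.25 and -1.38 ± 0.28, called in 3 and 1 of 8 fits with a library left out. Without P14 replicate 4, which was low in both, 13 genes of that list were called lower, where 667 of all 15528 genes were.

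Most ribosomal protein genes were slightly lower at P21. Of 81 tested, 5 fell past the fold threshold, where 2.6% of all genes did, and none rose. The median was -0.26 (-0.42 by library totals). At an adjusted P-value under 0.05, which 25.6% of all genes passed in either direction, 53 were lower. *Rpl39* went from 129.6, 127, 121 and 124 CPM to 76.1, 76.1, 70.6 and 77.1 CPM (-0.75 ± 0.05, adjusted P=0.00018). *Rpl41*, *Fau*, *Rps14* and *Rpl3* fell by 0.68, 0.64, 0.63 and 0.64. *Eef1a1* was at 1535, 1558, 1311 and 1232 CPM and then 597, 724, 754 and 697 CPM. These genes have many processed copies in the genome, and how the counting shared their reads was not tested.

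Several genes of glucose use rose. Of 41 glycolysis and glycogen genes 7 rose and 2 fell, with a median of 0.41, where 2.93% of all genes tested rose. Without P14 replicate 4, 14 rose and 1 fell, where 697 and 667 of all 15528 genes did. *Hk2*, the hexokinase that traps glucose in muscle, was at 142, 139, 182 and 222 CPM at P14 and 503, 466, 422 and 426 CPM at P21. Its log2 fold change was 1.395 ± 0.15 (adjusted P=0.00072), or 2.63-fold higher. *Slc2a4*, the insulin-responsive glucose transporter GLUT4, went from 253, 237, 286 and 356 to 636, 533, 459 and 513 CPM (called in 5 of 8 fits with a library left out, 0.90 ± 0.14, adjusted P=0.0030). *Gbe1*, the branching enzyme of glycogen synthesis, rose by 1.17 ± 0.12 (adjusted P=0.00055). The 2 that fell were *Fbp2*, singled out after its values were seen and called in 1 of those fits, and *Eno1*, the enolase of immature cells, at 359.6 ± 49.8 CPM (SD) and then 197 ± 11.99 CPM.

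Of 40 lipid synthesis genes 5 rose and 1 fell, where 2.93% and 2.6% of all genes did, with a median of 0.30. *Acaca* and *Acacb*, the acetyl-CoA carboxylases that make malonyl-CoA, rose by 1.30 ± 0.15 and 0.74 ± 0.12, the second called in 5 of 8 fits with a library left out. *Mlxipl*, the carbohydrate-sensing factor ChREBP, was at 37.6, 31.98, 39.6 and 51.7 CPM and then 90.4, 79.99, 90.5 and 84.1 CPM (1.09 ± 0.14, adjusted P=0.0012). *Sc5d*, a late enzyme of cholesterol synthesis, rose by 0.67 ± 0.08. *Thrsp*, a regulator of lipogenesis, went the other way, by -0.94 ± 0.12 (adjusted P=0.0011). Of 40 fatty acid oxidation and ketone genes, 2 rose and 2 fell, shares near those of all genes (2.93% and 2.6%), with a median of -0.10. The 2 that fell were *Ucp2*, an uncoupling protein homolog, from 71.6, 65.2, 76.7 and 77.4 to 22.7, 33.1, 32.1 and 29.9 CPM, and *Cpt1a*, the liver form of the carnitine transferase that admits fatty acids to mitochondria, by 0.76 ± 0.13 (called in 4 of those 8 fits). The 2 that rose both encode enzymes of ketone body use. *Oxct1*, its rate-limiting transferase, was at 140.1, 131, 173 and 197 CPM and then 388, 376, 445 and 421 CPM (1.33 ± 0.14, adjusted P=0.00056). *Bdh1*, the hydroxybutyrate dehydrogenase, rose by 2.02 ± 0.34 from 6–20 to 28–61 counts a library, and 4 of the 8 fits called it. It had been at 3.83 CPM at P1 and was at 7.33 CPM at P35.

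Of 13 mitochondrially encoded genes 3 rose (2 by library totals), where 2.93% of all genes tested did, and the median was 0.58. At an adjusted P-value under 0.05, which 25.6% of all genes passed, 10 were higher, and 1 of the 13 had a negative sign. Their summed level was 82707–113674 CPM at P14 and 122465–144225 CPM at P21, without overlap. *mt-Nd2*, a complex I subunit, was at 5048, 5069, 6271 and 7403 CPM and then 11391, 10234, 10629 and 9726 CPM (0.81 ± 0.16, adjusted P=0.0077), and only 1 of 8 fits with a library left out called it. The number of the list called without P14 replicate 4 was 9, where 1364 of all 15528 genes were called. *mt-Atp8* and *mt-Nd4l* rose by 0.89 ± 0.10 and 0.73 ± 0.12, but each overlaps a neighboring gene and their reads cannot be fully told apart. The call of *mt-Nd4l* was kept in 5 of 8 such fits. The 79 nuclear genes of oxidative phosphorylation gave 0 DEGs by edgeR and a median of 0.15 (0.0049 by library totals), with 8 higher and 3 lower at an adjusted P-value under 0.05. At an unadjusted one 18 were higher and 3 lower, where 6081 of all 15337 genes passed, and DESeq2 called 0. Without P14 replicate 4 edgeR called 2, where 1364 of all 15528 genes were called. *Sdha* of complex II came nearest, at 0.53 ± 0.09 (adjusted P=0.0039).

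The DEGs with at least 1000 CPM at either age numbered 19, and these were not tested as a group. *Flnc*, a filamin of the Z-disc, went from 593, 655, 550.4 and 604 to 1176, 1135, 1140.3 and 1089 CPM (0.91 ± 0.08, adjusted P=0.00037). *Xirp2*, a repeat protein of the intercalated disc and Z-disc, rose by 0.88 ± 0.10, *Actn2*, alpha-actinin, by 0.83 ± 0.13, *Ldb3* of the Z-disc by 0.79 ± 0.14 and the linker *Plec* by 0.60 ± 0.08. *Ckmt2*, the mitochondrial creatine kinase, was at 609, 582, 733 and 1033 CPM and then 1879, 2158, 2112 and 1618 CPM (1.38 ± 0.20, adjusted P=0.0018). The RNA-binding protein gene *Zfp106* and the kinesin gene *Kif1c* rose by 0.88 and 0.62. *Nmrk2*, a muscle kinase that feeds NAD synthesis, was scarcer but among the 8 highest DEGs, at 1.51, 1.35, 2.74 and 4.49 CPM and then 17.6, 39.6, 13.9 and 14.2 CPM (3.08 ± 0.47, adjusted P=0.0026). Also among the 8 highest were *Hs3st5*, a heparan sulfate sulfotransferase, which rose by 2.80 ± 0.23, and *Apol11b* of the apolipoprotein L family, by 3.29 ± 0.48, from 1–14 to 41–74 counts a library. Of the 8 fits with a library left out, 2 called *Ldb3*, 2 *Kif1c*, 5 *Actn2*, 6 *Nmrk2*, 7 *Plec* and 7 *Apol11b*.

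Red cell transcripts made up the list with the highest median. Of 9 erythroid genes tested 7 rose, where 2.93% of all genes did. All 9 were higher at an adjusted P-value under 0.05, which 25.6% of all genes passed in either direction, with a median log2 fold change of 2.73. *Hba-a1* (chr11:32283511-32284465), an alpha globin, was at 77.00, 77.1, 86.2 and 115 CPM at P14 and 796, 604, 749 and 778 CPM at P21. No library overlapped, and the log2 fold change was 3.03 ± 0.16 (adjusted P=7.6e-05), or 8.15-fold. *Hba-a2*, *Hbb-bt* and *Hbb-bs* rose by 2.90 ± 0.18, 2.89 ± 0.21 and 2.73 ± 0.22. The globin genes occur as near-identical pairs, so the split of reads within a pair is uncertain. *Alas2*, which encodes the first enzyme of heme synthesis in red cells, was at 6.69, 7.26, 7.32 and 11.97 CPM and then 60.9, 45.9, 66.3 and 57.2 CPM (2.78 ± 0.20, adjusted P=0.00018). The rise did not last. *Hba-a1* was at 232 CPM at P1 and 65.7 CPM at P35, and *Alas2* was at 11.8 and 4.29 CPM. The summed level of the list was 446.1–763.4 CPM at P14 and 3189–4366 CPM at P21, and how much of it came from blood left in the muscle was not tested. In KO muscle *Hba-a1* was at 60.2–94.97 CPM at P14 and 317–637 CPM at P21.

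Of 20 circadian clock genes 1 was called, a share near the 5.53% of all genes. *Nr1d1*, the repressor REV-ERB alpha, was at 44.8, 44.1, 35.7 and 39.6 CPM and then 87.4, 134, 169.8 and 236 CPM, and it rose by 1.92 ± 0.26 (adjusted P=0.0016). The clock output gene *Dbp* had a higher log2 fold change, 2.18 ± 0.61, but its P21 libraries ranged over 58.6, 81.1, 14.1 and 191 CPM and it did not pass (adjusted P=0.029). The time of day of dissection was not given, so age and time of day cannot be told apart. Of 12 genes of the thyroid hormone axis 2 rose (1 by library totals), where 2.93% of all genes did. They were the receptor gene *Thrb*, from 6.51, 7.41, 8.05 and 10.5 to 17.05, 15.00, 11.6 and 15.9 CPM, and the orphan receptor gene *Esrra*, by 0.73 ± 0.10. *Thrb* was called in only 2 of 8 fits with a library left out. Of 27 growth factor and myostatin signaling genes 1 rose and 1 fell, shares near those of all genes (2.93% and 2.6%). *Socs2*, a target of growth hormone, rose by 0.72 ± 0.11 and *Igfbp4*, which binds insulin-like growth factors, fell by 0.75 ± 0.14 (called in 2 of those fits). Of 25 glucocorticoid responsive genes 1 rose, a share near the 2.93% of all genes. It was *Amd1* of polyamine synthesis (1.10 ± 0.11, adjusted P=0.00056).

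Immediate early genes, which answer within minutes to handling or activity, gave 0 DEGs among 21 by edgeR and 1 by DESeq2 (median 0.50). Without P14 replicate 4 edgeR called 2, where 1364 of all 15528 genes were called. At an adjusted P-value under 0.05, 3 were higher. At an unadjusted one 7 were higher and 1 lower, where 6081 of all 15337 genes passed. *Egr1* was at 19.6, 20.5, 29.9 and 88.5 CPM at P21, where P21 replicate 4 was the highest, and at 10.1–16.8 CPM at P14 (adjusted P=0.037). Of 38 interferon and antigen presentation genes, 35 had a positive sign, as had 7181 of all 15337 genes, and the median was 0.25. In that list 1 gene rose, where 2.93% of all genes did. It was *Ifit3*, at 1.04 ± 0.21 (adjusted P=0.0078), which 2 of 8 fits with a library left out called. The number that rose was 0 by library totals, where 246 of all 15337 genes rose. It was 6 without P14 replicate 4, where 697 of all 15528 genes rose.

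Apart from the red cell genes above, 3 of the markers of other cells were called in all the lists below, where 5.53% of all genes were. By edgeR there were 0 DEGs among 12 macrophage, 7 lymphocyte, 10 mural cell, 11 tendon, 19 Schwann cell, 11 adipocyte and 4 keratinocyte markers tested. At an adjusted P-value under 0.05 these lists held 5 genes in all. At an unadjusted one they held 4 macrophage, 3 lymphocyte, 1 mural cell, 1 tendon, 1 Schwann cell, 2 adipocyte and 2 keratinocyte markers. That level was passed by 6081 of all 15337 genes. DESeq2 called 1 lymphocyte and 1 adipocyte marker. Of 12 endothelial markers 1 fell, *Cldn5* of the tight junction (-1.02 ± 0.19, adjusted P=0.0059), and of 13 fibroblast markers 1 rose, the actin-severing *Gsn* (1.13 ± 0.17, adjusted P=0.0023). Of 7 cartilage and bone markers 1 fell, the endopeptidase gene *Phex* (-1.46 ± 0.28). Of 8 fits with a library left out, 3 called *Cldn5*, 7 *Gsn* and 1 *Phex*. In the fit without P14 replicate 4, 1 lymphocyte, 2 endothelial and 3 fibroblast markers rose, and 1 Schwann cell, 1 endothelial, 1 fibroblast and 1 cartilage and bone marker fell. In that fit 697 of all 15528 genes rose and 667 fell. The summed tendon markers differed widely among the P21 libraries, over 44.2–871.8 CPM, against 305.8–563.4 CPM at P14. *Tnmd*, the tendon gene tenomodulin, was at 1.11, 27.7, 4.98 and 38.6 CPM in the P21 libraries, and the part of this spread in other results was not tested. Lymphocyte markers summed to 7.32–10.1 CPM at P14 and 9.33–27.6 CPM at P21. Macrophage markers overlapped, at 141.5–149.9 and 126.2–148.5 CPM.

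**Figure D4:**
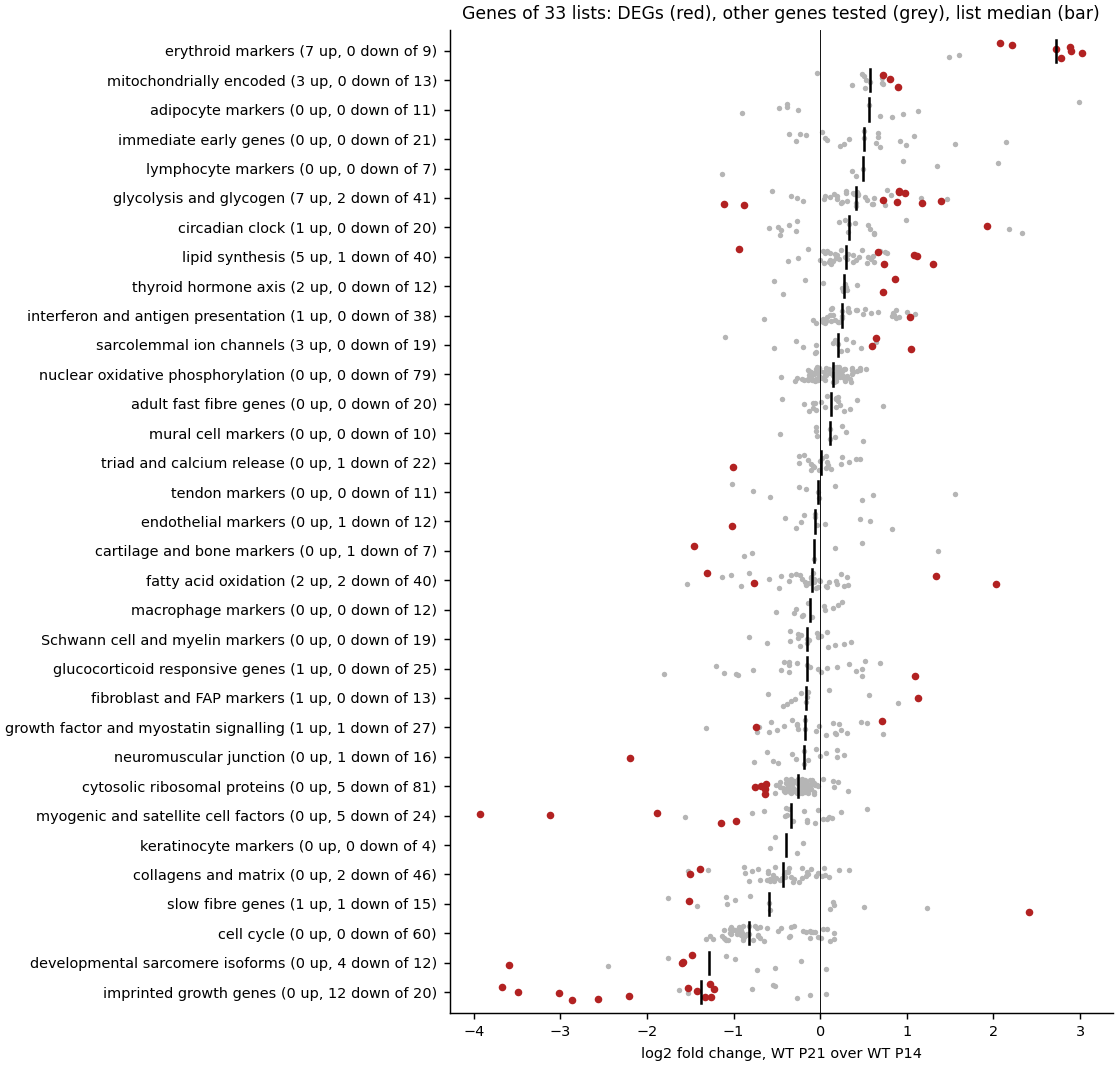
Log2 fold change from P14 to P21 in WT of every tested member of 33 gene lists, ordered by the list median (bars), with DEGs in red and other genes in grey. Erythroid markers lie at the top (median 2.73) and imprinted growth genes at the bottom (median -1.37).

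The same age step was then measured in KO muscle, which shares no library with the WT comparison. There, 1097 of 15585 genes (7.04%) were DEGs, 514 higher and 583 lower at P21. Of the 848 WT DEGs, 841 were also tested in KO, and 352 were called in the same direction (41.51% of the WT DEGs and 32.09% of the KO DEGs), while 3 were called in the opposite one. The sign was the same for 806 of the 841 (95.84%), against 75.26% of all 15179 genes tested in both. WT DEGs that rose had a median log2 fold change of 0.82 in WT and 0.58 in KO, and those that fell had medians of -1.02 and -0.81. The WT values chose these genes, which favors larger medians in WT, and the difference between the medians was not tested.

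Whether a gene changed differently in KO was tested as an interaction, and 92 of 16051 genes (0.573%) passed, 74 with the higher change in KO and 18 with the lower. The number was 368 with DESeq2. Leaving out 1 library moved it, to 30, 29 and 32 without WT P14 replicate 1, 2 or 3 and to 33, 47 and 48 without WT P21 replicate 1, 2 or 3. It was 33, 27, 34 and 52 without KO P14 replicate 1, 2, 3 or 4 and 54, 38 and 40 without KO P21 replicate 1, 2 or 4. Of these 92 genes, 23 were WT DEGs. *Sln* fell in WT but was at 21.5–39.5 CPM at P14 and 38.5–165 CPM at P21 in KO, a difference between the changes of 3.10 ± 0.54 (adjusted P=0.0081). *Myl4* fell by 1.60 in WT and was at 29.4 and 31.6 CPM in KO (difference 1.69 ± 0.24, adjusted P=0.0029). *Cacng1* likewise was at 359 and 367 CPM in KO (difference 1.02 ± 0.18, adjusted P=0.0086). *Actc1* went the other way: its mean was 2907 and then 494 CPM in KO (difference -2.65 ± 0.43, adjusted P=0.0063). The gene with the smallest P-value was *Eda2r*, a receptor of the tumor necrosis factor family. It was at 16.3, 16.96, 20.1 and 20.8 CPM and then 5.11, 8.75, 8.31 and 7.799 CPM in WT, and at 41.98–71.7 and 131–223 CPM in KO (difference 2.87 ± 0.28, adjusted P=0.00044). For the fusion gene *Mymx* the difference did not pass (adjusted P=0.026), although its KO libraries at P21, 0.882–4.92 CPM, all lay above the WT libraries of that age. The imprinted genes *Rian*, *Igf2* and *Cdkn1c* and the globin gene *Hba-a1* did not pass it either (adjusted P=0.89, 0.35, 0.64 and 0.68).

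**Figure D5:**
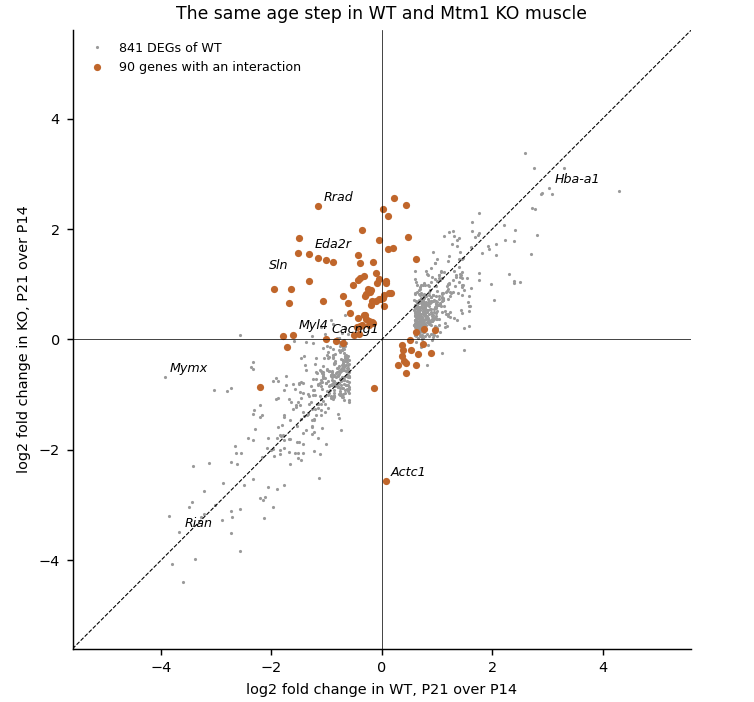
Log2 fold change from P14 to P21 in WT (x axis) and in KO (y axis) of the WT DEGs tested in both genotypes (grey) and of genes with an interaction (orange); the dashed line marks equal changes. Of 841 WT DEGs, 806 lie in the quadrants of like sign.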

How the data were processed

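Polyadenylated RNA was sequenced from stranded libraries. The values the authors deposited are RSEM expected counts of genes in each of the 32 libraries, and the submitters' processing notes name STAR 2.6.1, RSEM 1.2.22, DESeq2 and GRCm38. The annotation release and the strand setting of the counting are not given in the sources used here, so overlapping and antisense genes cannot be told apart with certainty. The table holds 54838 genes, of which 22379 are at 0 throughout, and 4.26% of values are not whole. Counts were rounded and samples were grouped by the labels' genotype and age.

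The 8 WT libraries of P14 and P21 were fitted alone with edgeR 4.0.16 (R 4.3.3, limma 3.58.1) after filterByExpr and TMM scaling, using the quasi-likelihood test with Benjamini-Hochberg adjustment. A gene was a DEG where its log2 fold change exceeded 0.585 in size (a fold of 1.5) and its adjusted P-value was under 0.01. The KO step was fitted likewise, and the interaction on all 16 libraries. Printed CPM were scaled by TMM over 32 libraries, so folds of printed means can differ slightly from fitted ones. SE is the fitted log2 fold change divided by the square root of F. Intervals were not computed, and PCR duplicates were not marked by molecular identifiers, so low counts carry counting error at least.

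The members and gene lists were chosen with earlier results of these data known. Named genes were the 8 highest and 8 lowest DEGs that did not overlap and reached a mean of 1 CPM, the 3 members of each list with the smallest adjusted P-value and its called members where 6 or fewer were called, the genes of the isoform pairs, DEGs of at least 1000 CPM, the 6 genes with the smallest interaction P-value, *Mtm1* and the sex markers. Others were named after their values had been seen, and some that the rule names are not reported here. Alternatives were DESeq2 1.42.0, RLE scaling, library totals, other filters, thinning, glmTreat, a replicate block, larger fits and leaving out each library. The edgeR fit of P21 against P14 was tested on data simulated from the 8 WT libraries. Python 3.11.15, pandas 2.3.3, numpy 2.4.6 and matplotlib 3.10.9 were used.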

Additional observations from a re-analysis of the deposited data

Results flagged for a closer look

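In 318 groups of 4 libraries looked at, 23 held a library set apart, where chance gives about 1 in 20 groups. In each of the 23 the gap to its neighbor took up at least 0.8375 of the group's range. Of these, 8 were WT P14 replicate 4. It had 11.97 CPM of *Alas2*, 58.0 CPM of *Hbb-bt*, 103 CPM of *Insr*, 14.5 CPM of *E2f2* and 6.79 CPM of *Fbn2*. It also had 89.7 CPM of *Cdkn1a*, 86.8 CPM of *Flt1* and 547 CPM of *Aqp1*. WT P14 replicate 3 stood apart with 0.485 CPM of *Retn*.

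At P21, WT replicate 1 stood apart with 0.811 CPM of *Prr32* and 615 CPM of *Igf2*. Replicate 2 had 1090.8 CPM of *Hba-a2*, 1186 CPM of *Hbb-bs* and 39.6 CPM of *Nmrk2*. Replicate 3 had 30787 CPM of *Myh1*, 6.71 CPM of *Hey1*, 179 CPM of *Eno1* and 70.6 CPM of *Rpl39*. Replicate 4 had 186 CPM of *Tpm3*, 43.0 CPM of *Tnni1*, 289 CPM of *Atp2a2*, 7.32 CPM of *Cebpd* and 88.5 CPM of *Egr1*.

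The change from P14 to P21 differed between KO and WT for 11 of the 160 genes that the rule named. This was by the interaction test of edgeR with an adjusted P-value under 0.01, which 0.573% of all genes passed. The first 6 below were named for their small interaction P-values, so their passing was fixed by that choice. On the log2 scale, the KO change exceeded the WT change by 2.87 for *Eda2r*, 2.29 for *Cpne2*, 3.58 for *Rrad*, 0.58 for *Itga7*, 1.497 for *Anxa4* and 1.76 for *Ttc9*. It exceeded it by 3.10 for *Sln*, 1.69 for *Myl4*, 1.02 for *Cacng1* and 1.4997 for *Trp63*. For *Actc1* the difference was -2.65.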

How the results depend on the processing

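The number of DEGs in WT was 1340 with DESeq2, 144 with a replicate block, 71 when the fold itself was tested against 1.5 (glmTreat) and 1568 at an adjusted P-value under 0.05. It ranged from 349 to 1364 with 1 library left out. In KO, DESeq2 gave 1765 DEGs, the replicate block 487, and leaving out 1 library 396 to 1884. The interaction gave 368 genes with DESeq2, 50 with the block and 27 to 115 with 1 library left out. The distance of 0.49 between the group means had P=0.125 in an exact permutation test with the replicate block, the smallest value that 8 assignments allow, and was 0.47 to 0.54 with 1 library left out. Same-numbered P14 and P21 libraries did not deviate together (correlations -0.10, -0.12, -0.20 and -0.06). Whether the numbers stand for litters or preparation days was not given, and these values cannot show it. Of 82 named DEGs, none changed sign in any setting run, 28 were still called with the block and 20 by glmTreat. Some genes that were not called changed sign. By library totals these were *Kdm5d* (-0.11), *Actc1* (-0.11) and *Itga7* (-0.13), and with the block *Actc1* (-0.065). *Mtm1* was at 0.0095 with DESeq2, 0.0092 with RLE scaling, 0.0095 without mitochondrially encoded genes, 0.0067 with 32 libraries and 0.0034 with 16 libraries. With 1 library left out, the log2 fold change of *Mtm1* ranged from -0.038 to 0.049, *Actc1* from -0.36 to 0.31, *Myh11* from -0.020 to 0.48, *Eef1a2* from -0.0996 to 0.079, *Myl1* from -0.11 to 0.043, *Ddx3y* from -0.099 to 0.040 and *Eif2s3y* from -0.12 to 0.073. Depth limits *Mymx*, *Bdh1*, *Apol11b* and *Chrng*, whose lower group held few counts.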
